A study of Mus musculus with 8 samples.

Results

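The genes described here encode proteins of the cytoplasmic ribosome, measured in fourth-ventricle choroid plexus of mouse embryos at embryonic day 13 on 4 arrays labelled Otx2 knockout and 4 labelled wildtype. Members were taken by symbol from the array annotation: Rpl or Rps, digits, then nothing or the letter a, l or x, together with Rpsa and the stalk genes Rplp0, Rplp1 and Rplp2, each from probe sets listed for 1 gene only. Of 46 matching symbols, Rps4l was dropped because RefSeq classes it as a transcribed pseudogene, which left 45 of the 18193 genes measured, 24 of the large and 21 of the small subunit. Where a gene had several probe sets, the one with the highest mean over all 8 arrays stood for it. Of 79 standard ribosomal protein genes, 42 are members, 27 more, Rplp1 among them, are listed only on probe sets shared by several genes, and the other 10 are neither; 2 of those 10, Fau and Rps3a1, have a probe set of their own but a symbol outside the rule. The other 3 members, Rpl3l, Rpl39l and Rps27l, are paralogs outside that standard set.

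Both groups were untreated, of mixed strain background and with sex not determined. The labels call the mutants an Otx2 deficient strain and name no Cre driver or time of deletion, nor how many embryos went into a sample. The labels number biological replicates, so p-values measure the spread between these samples. In the knockout-labelled arrays 1 to 4 the Otx2 probe set read 12.385, 12.458, 12.436 and 12.479 on the log2 scale, and in the wildtype arrays 11.998, 12.051, 11.966 and 11.848. The targeted gene's reading was therefore higher, by 0.47 (adjusted p = 0.000648, limma), in the arrays labelled knockout, and where its probes lie relative to the deleted part was not given in the sources used here, so it does not check the labels. Array medians ran from 5.886 to 5.899 in the knockout-labelled arrays and from 5.854 to 5.876 in the wildtype arrays, without overlap.

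Each cytoplasmic ribosome is built of a small subunit, which holds the mRNA and reads its codons, and a large subunit, which joins amino acids and passes the new chain out through a tunnel. The mRNAs of its proteins are among the most abundant of a growing cell, and many begin with a run of pyrimidines that lets the TOR kinase pathway adjust how strongly they are translated. Choroid plexus epithelium is a secretory tissue that makes cerebrospinal fluid and large amounts of transthyretin, and Otx2 is a homeodomain transcription factor needed for its development.

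Most ribosomal protein genes did not pass the test between the groups. In limma's moderated test with Benjamini-Hochberg adjustment over all 18193 genes and a threshold of 0.05, 5 of the 45 were higher in the knockout-labelled arrays (Rpsa, Rpl11, Rpl37, Rps25 and Rpl12) and 0 were lower. That is 11.1% higher, beside 7.84% of all genes higher. Of all genes 11.7% were lower and 19.6% passed in either direction. At an unadjusted p under 0.05, 9 members were higher and 1 was lower, against 14.2% and 16.9% of all genes. How the share of rises stood to the background depended on the test. With a trended robust variance 11 members were higher (24.4%, against 8.92% of all genes) and 1 lower (2.22%, against 12.5%). A per-gene unequal-variance test called 8 higher (17.8%, against 3.69%) and 0 lower (against 8.2%). With any 1 array left out, the share was 2.22% to 11.1%, against 4.97% to 10.1% of all genes. It was above the share of all genes only without knockout-labelled replicate 2 (11.1% against 10.1%). Without any other array it was below.

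The measured shift was small. The median difference over the 45 members, knockout-labelled minus wildtype, was 0.08 on the log2 scale, where the median of all genes was 0.00. Of the members, 40 had a positive difference (88.9%, against 50.1% of all genes). The number with a positive difference depended on the scaling: it was 36 with arrays centred on their medians and 34 with the values quantile-normalised again, with medians of 0.06 and 0.04. Centring moved the median of all genes to -0.03. The 8 readings of a gene did not overlap between groups, knockout-labelled arrays higher, for 15 members (33.3%, against 9.98% of all genes), and for 1 member, Rps27l, with wildtype arrays higher (2.22%, against 14.4%). RMA brings the arrays close to a common distribution, so a change in total ribosomal mRNA per cell is not visible here. In whole tissue, fewer cells of a type and less RNA per cell cannot be told apart.

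**Figure D1:**
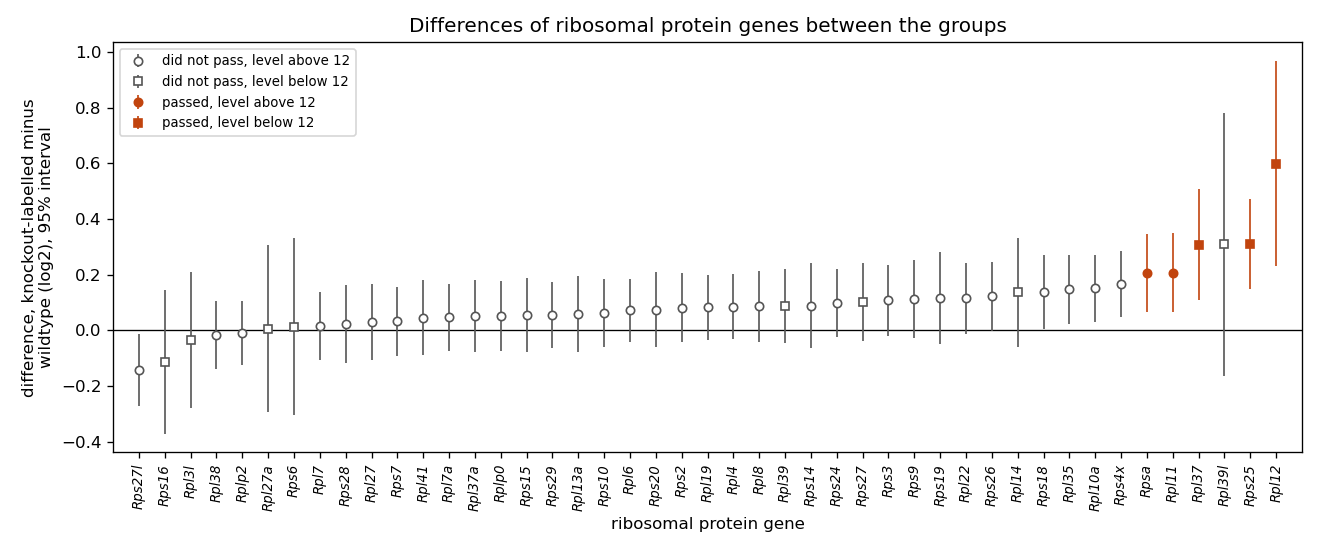
Difference between knockout-labelled and wildtype means (log2, vertical axis) for each of the 45 ribosomal protein genes, ordered by size, with 95% intervals from limma (4 arrays a group). Filled markers are the 5 genes that passed the threshold, circles are probe sets above 12 log2 units and squares those below; 40 of the 45 points lie above 0.

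The members fell into 34 with bright probe sets and 11 with dim ones, with a gap between 9.28 (Rpl37) and 12.10 (Rps27l) in mean log2 level. A probe set's brightness reflects its probes as well as its transcript, so levels of different genes are not compared. The 34 bright members were measured tightly: their median replicate SD, pooled over the groups, was 0.05, against 0.13 over all genes and 0.17 over the 11 dim members. Their differences ran from -0.14 to 0.21, and none of their 95% intervals reached past 0.35 in either direction, a fold of 1.27. Their means lie between 12.10 and 13.71, and the highest reading of each array was 14.30 to 14.35. Whether differences are compressed near the top of the scale was not tested. The intervals therefore bound the measured difference only. Of the bright members 2 of 34 (5.88%) passed, and of the dim members 3 of 11 (27.3%), beside the 7.84% of all genes higher. Those 3 dim members are Rpl37, Rps25 and Rpl12. Each has 1 single-gene probe set and is also listed on probe sets of several genes, which the rule leaves out. The dim members' intervals reached 0.97, a fold of 1.96. By subunit, 3 of 24 large-subunit genes (median 0.08) and 2 of 21 small-subunit genes (median 0.09) were higher.

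**Figure D2:**
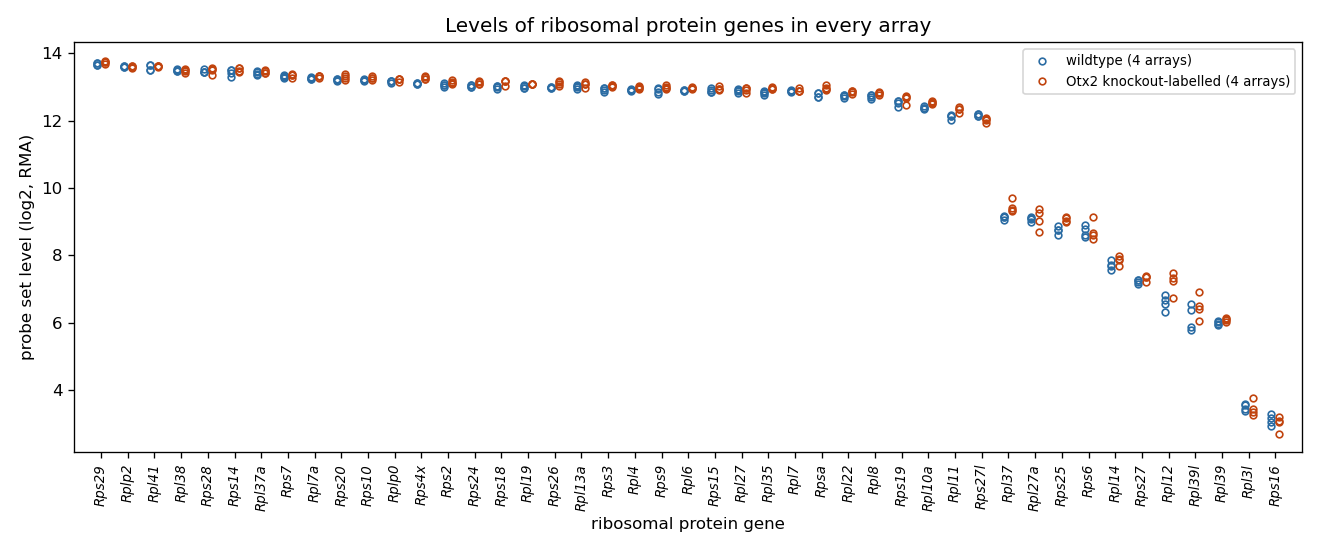
Level of each of the 45 genes' chosen probe sets in every array (log2, RMA), ordered by mean level; blue circles are the 4 wildtype and orange the 4 knockout-labelled arrays. The 34 bright genes have means above 12, with single readings down to 11.94 (Rps27l), and differences between groups of -0.14 to 0.21; the 11 dim genes lie no higher than 9.69.

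Among the small-subunit genes, Rpsa, a protein of the small subunit also known as a laminin receptor, read 12.99, 12.90, 12.96 and 13.05 in the knockout-labelled arrays and 12.83, 12.71, 12.70 and 12.83 in the wildtype arrays. Every knockout-labelled reading was above every wildtype one. The difference was 0.21 ± 0.06 (SE, n = 4 per group; limma adjusted p = 0.0467).

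Rps25, which several viral internal ribosome entry sites need in order to start translation, read 9.10, 8.98, 9.02 and 9.15 in the knockout-labelled arrays and 8.77, 8.60, 8.77 and 8.86 in the wildtype arrays. The groups did not overlap. Its difference of 0.31 ± 0.07 (SE) had the lowest adjusted p of the 45 (limma, 0.0144), and with any 1 of the 8 arrays left out its adjusted p was at most 0.0434.

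Among the large-subunit genes, Rpl11, which with Rpl5 and 5S rRNA can bind and block Mdm2, the ubiquitin ligase that removes p53, read 12.41, 12.24, 12.34 and 12.34 in the knockout-labelled arrays and 12.18, 12.03, 12.15 and 12.14 in the wildtype arrays. The groups did not overlap, with knockout-labelled replicate 2 lowest of its group and wildtype replicate 2 lowest of its own. The difference was 0.21 ± 0.06 (SE, limma adjusted p = 0.0453).

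Rpl37, a small zinc-binding protein of the large subunit, read 9.69, 9.32, 9.34 and 9.41 in the knockout-labelled arrays and 9.15, 9.18, 9.15 and 9.04 in the wildtype arrays. These did not overlap either, and knockout-labelled replicate 1 was the highest of all. Its difference was 0.31 ± 0.09 (SE, limma adjusted p = 0.0384); the ID of its probe set carries the maker's mark for probes that may bind other transcripts.

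Rpl12, at the base of the stalk that recruits translation factors, read 7.32, 6.72, 7.24 and 7.47 in the knockout-labelled arrays and 6.55, 6.30, 6.81 and 6.68 in the wildtype arrays. Here the groups overlapped, because knockout-labelled replicate 2 lay below wildtype replicate 3. Its difference, on a dim probe set with a mean of 6.89, was the largest of the 45 members. It was 0.60 ± 0.16 (SE), a fold of 1.51 (limma adjusted p = 0.0303).

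These calls rested on few arrays. All 5 passed when knockout-labelled replicate 2 was left out. With wildtype replicate 1, 2 or 4 left out, or with replicate 1 or 4 of the knockout-labelled group left out, Rps25 was the 1 member still past the threshold. Without knockout-labelled replicate 3, Rpl37 and Rps25 passed, and without wildtype replicate 3, Rpl12 and Rps25 did. Over the 8 omissions Rpsa's adjusted p reached 0.133, Rpl11's 0.135, Rpl37's 0.105 and Rpl12's 0.0853 (limma). The differences themselves kept their sign, from 0.18 to 0.23 for Rpsa, 0.18 to 0.24 for Rpl11, 0.22 to 0.35 for Rpl37 and 0.50 to 0.75 for Rpl12.

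Promoter sequence is shown for the 5 genes because they were the members that passed. RefSeq's promoter table (GRCm38.p6), which holds 250 bases before and 50 bases after an annotated start, had an entry for 40 of the 45 members, 48 promoters in all. Each line gives 50 bases before the start and 20 from it on, 5′ to 3′ along the gene's strand; capitals mark an ETS-type motif, CCGGAAG on either strand. They lie at chr9:120127716-120127785 (Rpsa, plus strand), chr9:44407664-44407733 (Rps25, plus), chr4:136053374-136053443 (Rpl11, minus), chr15:5116563-5116632 (Rpl37, plus) and chr2:32961662-32961731 (Rpl12, plus).
Rpsa: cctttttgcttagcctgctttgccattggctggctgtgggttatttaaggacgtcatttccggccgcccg
Rps25: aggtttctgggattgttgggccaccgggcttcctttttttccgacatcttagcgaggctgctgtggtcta
Rpl11: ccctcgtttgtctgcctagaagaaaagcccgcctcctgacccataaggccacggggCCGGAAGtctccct
Rpl37: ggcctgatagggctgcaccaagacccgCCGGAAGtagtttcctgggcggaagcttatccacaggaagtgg
Rpl12: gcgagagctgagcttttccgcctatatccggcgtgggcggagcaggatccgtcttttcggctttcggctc

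ETS factors are a family of activators found at many promoters of housekeeping genes. The letters CCGGAAG were held by 20 of the 48 member promoters (41.7%), against 8.86% of the 32851 promoters in the table. Of the 5 genes, Rpsa and Rps25 held it outside the stretch printed, Rpl11 and Rpl37 inside it, and Rpl12 had no match in its window. The other 16 genes that held it did not pass.

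A run of pyrimidines at the transcription start is the mark of TOR-regulated ribosomal mRNAs. A C exactly at the annotated start followed by at least 4 pyrimidines was found in 8 of 48 member promoters (16.7%, against 2.51% of all promoters). Because annotated starts can be a few bases off, a run of at least 8 pyrimidines from 10 bases before to 20 after the start was also counted, a choice made after the first count was seen: 16 of 48 held one (33.3%, against 11.2%). None of the 5 genes that passed was among these 16. The run, in capitals, is shown for a stalk gene and 3 other members, with the ETS-type motif of Rpl38 in capitals too; they lie at chr7:141447601-141447670 (Rplp2, plus strand), chr2:39005112-39005181 (Rpl35, minus), chr3:90213629-90213698 (Rps27, minus) and chr11:114668530-114668599 (Rpl38, plus).
Rplp2: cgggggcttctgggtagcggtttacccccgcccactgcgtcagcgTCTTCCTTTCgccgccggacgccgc
Rpl35: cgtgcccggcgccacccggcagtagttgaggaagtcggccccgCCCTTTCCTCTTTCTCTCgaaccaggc
Rps27: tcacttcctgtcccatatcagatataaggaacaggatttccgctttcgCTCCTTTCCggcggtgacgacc
Rpl38: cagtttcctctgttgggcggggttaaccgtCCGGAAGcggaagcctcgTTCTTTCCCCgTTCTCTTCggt

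The core bound by Otx2-type homeodomains, TAATCC on either strand, was in 3 of 48 member promoters (6.25%), close to the 7.06% of all promoters. The 3 are printed with the bases around the match, which is in capitals (GGATTA is the same motif on the other strand), and lie at chr7:3703830-3703859 (Rps9, plus strand), chr16:10170157-10170186 (Rpl39l, plus) and chr17:33824761-33824790 (Rps28, minus).
Rps9: tcgttaattcttGGATTAaccaaatgtcac
Rpl39l: gcttgctttacgTAATCCgcgcctgcgtac
Rps28: ttcagggatcctGGATTAtccactgaacta
None of these 3 genes passed. Their differences were 0.11 for Rps9, 0.31 for Rpl39l and 0.02 for Rps28. Of the other motifs, the E-box CACGTG, bound by Myc, was in 10.4% of member and 7.15% of all promoters. The YY1-type motif AAGATGGC was in 6.25% and 2.75%, the TATA motif TATAAA in 10.4% and 13.6%, and the pyrimidine stretch CTCTTTCC in 8.33% and 3.12%. All were searched on both strands, and CTCTTTCC can lie within a pyrimidine run. A match is a run of letters and not a measured binding site.

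The ribosomal stalk, which recruits the translation factors that hydrolyse GTP, is represented by its scaffold Rplp0 and by Rplp2. Rplp0 read 13.25, 13.14, 13.25 and 13.25 in the knockout-labelled arrays and 13.19, 13.12, 13.18 and 13.19 in the wildtype arrays. Replicate 2 was the lowest array in both groups, and the groups overlapped. The difference was 0.05 (95% interval -0.07 to 0.18). Rplp2 differed by -0.01 (interval -0.13 to 0.11).

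Of the paralogs, Rps27l, whose human counterpart is a target of p53, read 12.06, 11.94, 12.09 and 12.04 in the knockout-labelled arrays and 12.13, 12.15, 12.21 and 12.20 in the wildtype arrays. It was the 1 member with every knockout-labelled array below every wildtype array. Its difference of -0.14 ± 0.06 (SE) did not pass (limma adjusted p = 0.124, unadjusted p = 0.0346). Its other 2 single-gene probe sets differed by -0.10 each. Its partner Rps27 had an overlapping difference of 0.10 (adjusted p = 0.312, limma).

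Rpl39l, a paralog best known from testis, read 6.90, 6.04, 6.40 and 6.48 in the knockout-labelled arrays and 5.87, 5.79, 6.38 and 6.55 in the wildtype arrays. Within each group the arrays were spread by more than the groups differed, 0.31 ± 0.21 (SE, limma adjusted p = 0.374). Rpl39, which lines the exit tunnel, differed by 0.09 (adjusted p = 0.366, limma). Rpl3l, which takes the place of Rpl3 in heart and skeletal muscle, was among the dimmest probe sets at a mean of 3.46, in the lowest 6.87% of genes, and differed by -0.04. Rpl3 itself is not a member, and neither are Rpl10 and Rpl10l.

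The remaining bright members of the small subunit had differences from 0.02 to 0.17, none of which passed. Rps4x, the X-linked copy of Rps4, came closest, at 0.17 (adjusted p = 0.0547, limma). It read 13.32, 13.30, 13.24 and 13.24 in the knockout-labelled arrays and 13.12, 13.12, 13.10 and 13.08 in the wildtype arrays, without overlap. Rps4x is named after its values were seen, as are the other genes of this paragraph and the next that no rule named. Rps29, Rps28, Rps16, Rpl41 and Rpl38 were named by rule, as among the brightest or dimmest members. Rps18 (0.14), Rps26, which contacts mRNA at the exit channel (0.12), Rps3, at the mRNA entry channel (0.11), and Rps24 (0.10) also had groups that did not overlap. Rps19, the gene most often mutated in human Diamond-Blackfan anaemia, differed by 0.12, Rps9 by 0.11, Rps14 by 0.09 and Rps2 by 0.08. Rps20 (0.07), Rps10 (0.06), Rps29 (0.06), Rps15 (0.06), Rps7 (0.03) and Rps28 (0.02) overlapped too. The dim small-subunit members besides Rps25 and Rps27 were Rps6, the substrate of S6 kinase (0.01), and Rps16 (-0.11), whose mean level of 3.06 was the lowest of the 45 and was read from a single probe set.

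In the large subunit, Rpl10a (0.15, adjusted p = 0.0817, limma) and Rpl35, beside the mouth of the exit tunnel (0.15, adjusted p = 0.0970), came nearest to the threshold. Both had groups that did not overlap, as did Rpl22 (0.12), Rpl4, which lines the exit tunnel (0.08), Rpl19 (0.08) and Rpl6 (0.07). Of the bright members with overlapping groups, Rpl8 differed by 0.09, Rpl13a by 0.06, Rpl37a by 0.05, Rpl7a by 0.05, Rpl41 by 0.05, Rpl27 by 0.03 and Rpl7 by 0.02. Rpl38, whose loss in mice alters the axial skeleton, differed by -0.02 (95% interval -0.14 to 0.10). The dim Rpl14 (0.14) and Rpl27a (0.01) had groups that overlapped.

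The bright members were also followed array by array. Their mean level over the 34 genes was 13.12, 13.05, 13.11 and 13.12 in the knockout-labelled arrays and 13.04, 12.97, 13.02 and 13.05 in the wildtype arrays. Knockout-labelled replicate 2 was just under wildtype replicate 4, so the groups overlapped, and the group means differed by 0.08. At each replicate number, the knockout-labelled mean was above the wildtype mean of the same number. Replicate 2 was the lowest array of its group for 25 of the 34 genes in the knockout-labelled group and for 22 of the 34 in the wildtype group. Without replicate 2 of both groups, an alternative chosen after seeing the data, 2 members were higher, Rpl12 and Rps25 (4.44%, against 7.15% of all genes). In that setting 39 of 45 differences were positive, against 47.5% of all genes.

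**Figure D3:**
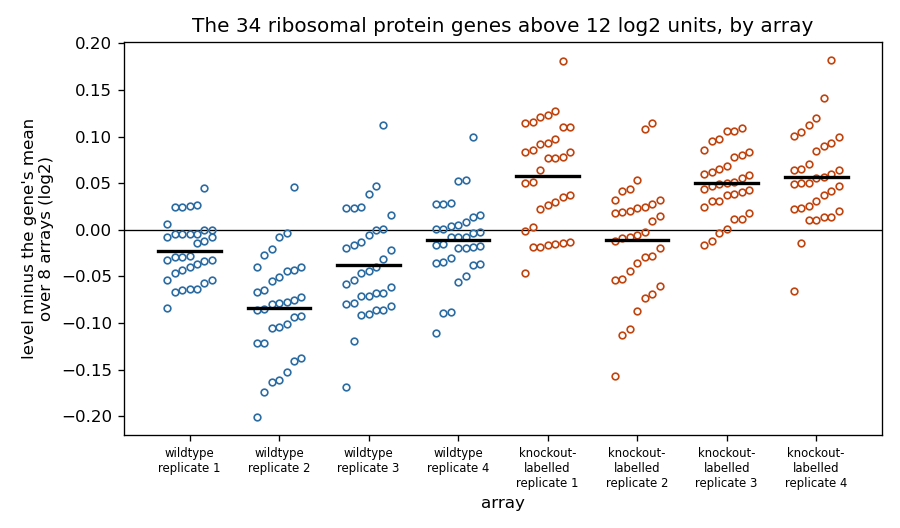
Level of each of the 34 bright ribosomal protein genes in each array, minus that gene's mean over the 8 arrays (log2); each circle is a gene and each bar the array's mean. Replicate 2 has the lowest bar in both groups, and the other 3 knockout-labelled bars lie above all wildtype bars.

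Some marker lists of other cell types moved between the same groups, where 7.84% of all genes were higher and 11.7% lower. Of 13 choroid epithelium markers measured, 10 were lower and 1, Otx2 itself, was higher. The list means were 10.02 to 10.21 in knockout-labelled and 10.92 to 11.02 in wildtype arrays. Ttr, the transthyretin gene, averaged 14.17 and 14.21 in these groups, near the top of the scale (difference -0.05, limma adjusted p = 0.647). All 10 stroma markers were higher (means 11.23 to 11.58 against 10.77 to 10.83), as were 10 of 11 macrophage markers (9.29 to 9.77 against 8.64 to 8.88). Of 12 neuron markers 0 passed (limma; 1 higher at an unadjusted p under 0.05), with means of 7.76 to 9.33 and 7.43 to 9.02. In the knockout-labelled group their highest mean was in replicate 2 (9.33), the array with that group's lowest bright ribosomal mean. In the wildtype group the highest neuron mean was in replicate 1 (9.02), while replicate 2 had the lowest bright ribosomal mean. Knockout-labelled replicate 2 also had its group's lowest stroma (11.23) and macrophage (9.29) means and its highest choroid epithelium mean (10.21). Wildtype replicate 2 had its group's highest stroma mean (10.83), and neither the lowest macrophage nor the highest choroid epithelium mean. Of 16 proliferation genes 2 were higher (12.5%) and 1 lower (6.25%), with means of 9.25 to 9.58 against 9.15 to 9.33. Of 9 endothelial markers 1 was higher (11.1%) and 3 lower (33.3%), with means of 9.03 to 9.27 against 9.20 to 9.43. Of 9 erythroid markers 1 was lower (11.1%), with means of 8.77 to 9.12 against 9.03 to 9.14. The proliferation and erythroid shares were thus near those of all genes. RMA lists no value at 0. The part of these lists in the ribosomal protein differences was not tested.

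The choice of probe set bears on the dim members. The 45 genes have 99 single-gene probe sets, and 23 genes have more than 1. Fitted over all single-gene probe sets, 6 of the 99 were higher, beside 6.08% of all such probe sets. In that fit, over more tests, Rpl37, Rps25 and Rpl12 still passed on their chosen probe sets, and Rpsa (adjusted p = 0.0648) and Rpl11 (0.0628) did not. Of the 54 that were not chosen, 48 had a positive difference, 3 were higher and 0 lower (limma; 13 and 0 at an unadjusted p under 0.05), where 9.39% of all single-gene probe sets were lower. Those 3 were dim probe sets of genes whose bright probe set did not pass. Rpl41's read a mean of 6.35 and differed by 0.47 (adjusted p = 0.00294), against 0.05 on its bright one. Rps9's read 6.15 and differed by 0.55 (adjusted p = 0.00348), against 0.11. Rps3's read 8.92 and differed by 0.31 (adjusted p = 0.0205), against 0.11. All single-gene probe sets of these 3 genes had a positive difference; the gap between probe sets of a gene was not tested. The largest difference of the 99, 0.68 on another Rps9 probe set, had an SE of 0.82.

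**Figure D4:**
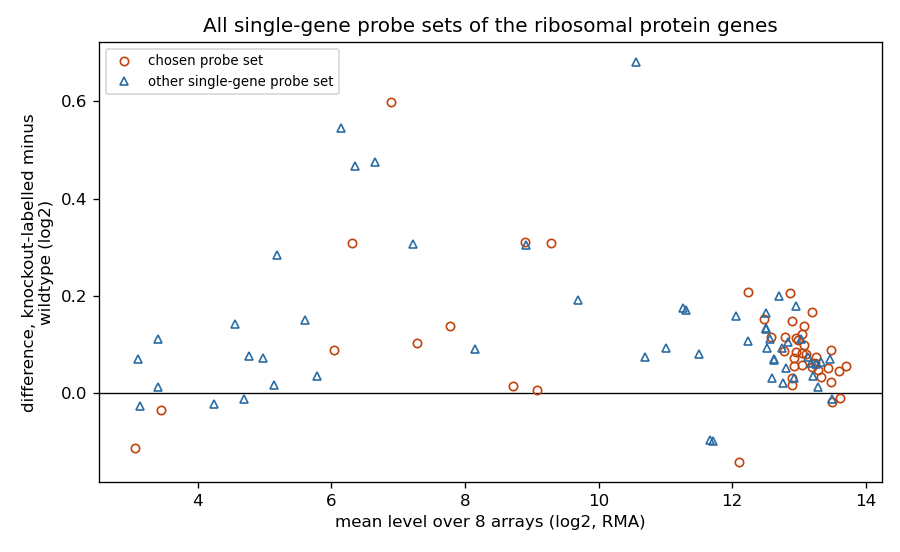
Mean level over the 8 arrays (log2, horizontal axis) against the difference between groups (log2, vertical axis) for all 99 single-gene probe sets of the 45 genes. Orange circles are the chosen and blue triangles the other probe sets; above 12 log2 units all differences lie between -0.14 and 0.21, and below it they reach 0.68.

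The 110 probe sets that list a symbol of the rule among several genes, which name no single gene, were counted after the data were seen. Their median difference was 0.08, 99 were positive, 12 were higher and 2 lower. Of all 35877 annotated probe sets 17675 were positive, 2165 higher (6.03%) and 3347 lower. Of the 71 shared probe sets above 12 log2 units, 70 were positive and 5 higher.

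Related lists give the setting, beside 7.84% of all genes higher and 11.7% lower. The ribosomal protein genes or paralogs that the symbol rule misses, Fau, Rps3a1, Rpl22l1 and Rpl7l1, gave 0 calls of 4 (limma; 0 at an unadjusted p under 0.05), with a median of 0.08; Rpl7l1 had the smallest p, at a difference of 0.19 (adjusted p = 0.195). Of 76 mitochondrial ribosomal protein genes, whose products translate the mitochondrial genome, 4 were higher and 6 lower (5.26% and 7.89%), with a median of -0.03. Leaving out knockout-labelled replicate 2 gave 5 rises, wildtype replicate 4 gave 3, wildtype replicate 1 gave 2 and any other array 1, while 6 were lower in each of these fits. The median turned to 0.00049 without knockout-labelled replicate 2 and to 0.0058 without wildtype replicate 4. The lowest difference of any cytoplasmic member was the -0.14 of Rps27l. Mrps6 read 10.81, 11.05, 11.04 and 11.06 in the knockout-labelled arrays and 11.68, 11.78, 11.78 and 11.75 in the wildtype arrays, a difference of -0.76 (limma adjusted p = 9.39e-05) with no overlap. Mrpl49 differed by -0.63 (adjusted p = 0.000347) and Mrpl58, which releases stalled chains, by -0.60 (adjusted p = 0.000219).

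Of 77 genes for ribosome assembly, 8 were higher (10.4%, against 7.84% of all genes) and 0 lower (against 11.7%) in limma. At an unadjusted p under 0.05, 21 were higher and 2 lower, against 14.2% and 16.9% of all genes. The median was 0.09, and 61 differences were positive (79.2%, against 50.1%). Tsr1, which matures the small subunit, read 8.86, 8.49, 8.84 and 8.97 in the knockout-labelled arrays and 8.24, 8.25, 8.14 and 8.27 in the wildtype arrays. The groups did not overlap, and the difference was 0.56 (adjusted p = 0.00352). Mybbp1a differed by 0.34 (adjusted p = 0.00742) and Imp4, of the small-subunit processome, by 0.24 (adjusted p = 0.0179). With the block 1 gene of the list was lower. The count of rises was 20 without knockout-labelled replicate 2, where 10.1% of all genes were higher. It was 2, 6 and 3 without replicates 1, 3 and 4 of that group, and 4, 4, 3 and 6 without wildtype replicates 1 to 4. Imp4's call was lost without knockout-labelled replicate 1 or wildtype replicate 3, with adjusted p up to 0.0534.

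Of 17 genes listed for polymerase I, which transcribes rRNA, and for factors beside it such as Tcof1, 1 was higher (5.88%). None of the listed genes named Polr1 passed. The 1 call was Tcof1, at 0.46 (limma adjusted p = 0.0187). It was lost when wildtype replicate 3, or replicate 1 or 4 of the knockout-labelled group, was left out (adjusted p up to 0.0544). With knockout-labelled replicate 2 left out, or with the replicate number as a block, 2 genes were higher, and without knockout-labelled replicate 4 the count was 0 higher and 1 lower. The median was 0.01, and it turned negative without that array (-0.0060) or wildtype replicate 2 (-0.0112), with arrays centred on their medians (-0.0130), with the mean of probe sets (-0.0094) and without marked probe sets (-0.0554). Of 34 initiation genes 1 was higher (2.94%) and 2 lower (5.88%), with a median of 0.03. With the block 2 were higher and 1 lower. Leaving out knockout-labelled replicate 2 gave 3 falls, any other array of that group or wildtype replicate 1 gave 1, and wildtype replicate 2, 3 or 4 gave 0. Pabpc4, a poly(A)-binding protein, differed by 0.37 (adjusted p = 0.00405). Eif1a differed by -0.26 (adjusted p = 0.0254), lost without wildtype replicate 2, 3 or 4 (up to 0.0716), and at 0.0501 with the replicate number as a block. Eif2b2, of the exchange factor for eIF2, differed by -0.22 (adjusted p = 0.0286), and stayed past the threshold only when knockout-labelled replicate 2 was the array left out (otherwise up to 0.0844).

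Of 14 elongation genes 2 were higher (14.3%) and 0 lower in limma, with a median of 0.04. At an unadjusted p under 0.05, 4 were higher and 1 lower. Eef2k, the kinase that inhibits elongation factor 2, read 8.40, 8.36, 8.54 and 8.41 in the knockout-labelled arrays and 7.62, 7.55, 7.54 and 7.56 in the wildtype arrays. Its groups lay far apart, by 0.86 (adjusted p = 2.22e-05). Eef1e1, a scaffold of the tRNA synthetase complex, differed by 0.31 (adjusted p = 0.0116).

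The 26 genes listed for the TOR and Myc pathways, which set ribosome production, also hold the kinases Rps6ka3, Rps6ka5 and Rps6ka6. Rps6kb1 is not among them. Of the 26, 1 was higher and 1 lower (3.85% each), with a median of 0.06. Leaving out replicate 2 gave 6 rises when it was the knockout-labelled array and 1 when it was the wildtype array; leaving out any other array gave 0. Myc read 7.303, 6.915, 7.445 and 7.417 in the knockout-labelled arrays and 6.744, 6.998, 6.779 and 6.801 in the wildtype arrays. Knockout-labelled replicate 2 lay below wildtype replicate 2. The difference was 0.44 (adjusted p = 0.0285), at 0.0636 with the block, and it kept its call only without knockout-labelled replicate 2 or wildtype replicate 2 (otherwise up to 0.0772). Deptor, an inhibitor of TOR, differed by -0.27 (adjusted p = 0.0202), a call lost when wildtype replicate 1, 2 or 4, or replicate 1 or 4 of the knockout-labelled group, was left out (up to 0.0598). With the block 0 genes of this list were higher.

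Of 20 p53 targets, looked at because unassembled ribosomal proteins such as Rpl11 can stabilise p53, 1 was higher (5%) and 2 lower (10%). The median was 0.03. Without knockout-labelled replicate 2 the count was 2 higher and 3 lower; the count of rises was 0 without knockout-labelled replicate 4 or wildtype replicate 1, 3 or 4. The median was -0.0157 without knockout-labelled replicate 3, -0.0057 without marked probe sets and -0.0016 without replicate 2 of both groups. Polk differed by -0.49 (adjusted p = 0.000839) and Ccng1 by -0.34 (adjusted p = 0.0114). Btg2 differed by 0.36 (adjusted p = 0.0329) and kept its call only without knockout-labelled replicate 3 or wildtype replicate 2 (otherwise up to 0.0932).

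**Figure D5:**
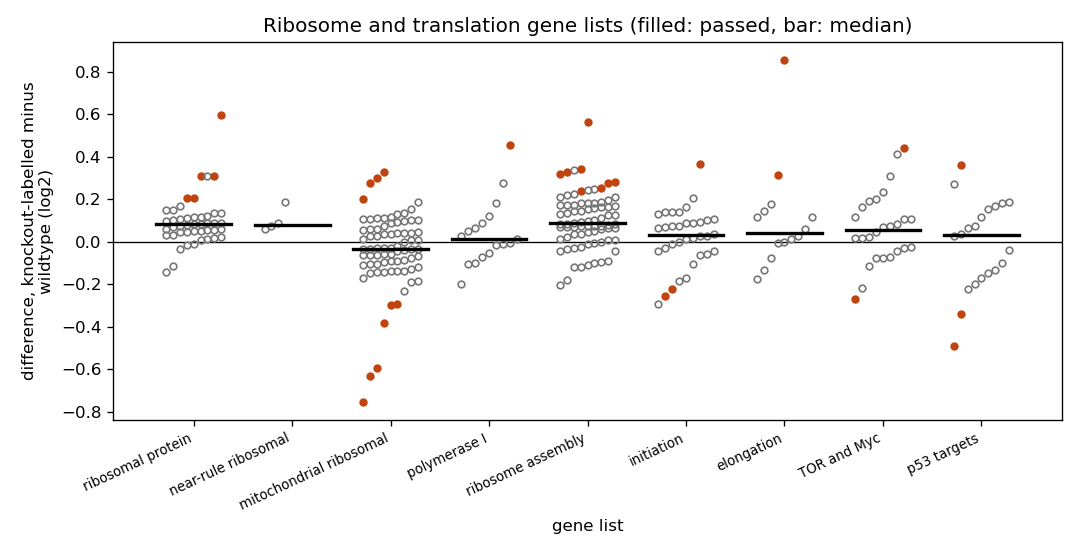
Difference between groups (log2, vertical axis) for every measured gene of the ribosome and translation lists; each circle is a gene, filled where it passed the threshold, and each bar is the list's median; the near-rule list holds Fau, Rps3a1, Rpl22l1 and Rpl7l1. The ribosomal protein points run from -0.14 to 0.60 with a median of 0.08, and the mitochondrial ribosomal list holds falls to -0.76.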

How the data were processed

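Total RNA of 8 samples was amplified into biotin-labelled RNA (labels' protocols) and hybridised to 1 array each. What the authors deposited is a log2 level for each of 45101 probe sets; the submitters' processing notes name RMA. For RMA, a version was not given in the sources used here. RMA brings array distributions close together, and arrays carry no read depth, so the 4 arrays per group limit the precision. Platform annotation lists 1 gene for 34945 probe sets, several for 932 and none for 9160; the 64 control probe sets were left out. The brightest single-gene probe set stood for each of 18193 genes. Rps4l, left out as a pseudogene, would have differed by 0.70 (adjusted p = 0.00211).

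Groups were compared with limma 3.58.1 (R 4.3.3), lmFit and eBayes with genotype as the term, two-sided, adjusted by Benjamini-Hochberg over all genes at 0.05; scripts were tested on simulated data. Promoters were read with Python 3.11.15. Deviations from group means of same-numbered arrays correlated at 0.131, 0.232, 0.160 and 0.223, each above 0.1. Other pairs ran from -0.296 to 0.294, the highest being knockout-labelled replicate 3 with wildtype replicate 4. Another pair, knockout-labelled replicate 4 with wildtype replicate 1, was at 0.171. All same-numbered pairs were thus positive, where other pairs went both ways. The labels do not say what a number shares, and whether same-numbered arrays form pairs was not tested. The replicate number was a block only in an alternative fit. Alternatives were the block, each array left out, centring, a second quantile normalisation, a level filter, other probe set choices, trended variance, array weights, a threshold of 0.01 and a per-gene unequal-variance test. Named genes were the members that passed, paralogs with partners, stalk genes, the brightest and dimmest members, the called genes with the smallest p in each other list (at most 3) and Otx2. Members and lists were chosen with earlier results of these data known.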

Additional observations from a re-analysis of the deposited data

Results flagged for a closer look

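In 10 of 150 groups of 4 arrays tested, the highest or lowest array stood apart from the rest: its gap to the nearest array, as a share of the group's range, was above Dixon's 95% critical value. Chance flags about 1 in 20 such groups. Knockout-labelled replicate 2 was the low array for Rplp0 (share 0.92, reading 13.14 with the next at 13.24), Rps18 (0.884), Rps27 (0.889) and the mean of the 34 bright ribosomal protein genes (0.898, reading 13.05 with the next at 13.11). Knockout-labelled replicate 1 was the high array for Rpl7 (0.93) and Imp4 (0.851) and the low one for Mrps6 (0.904) and Eif2b2 (0.832). In the wildtype group, replicate 3 was high for Rps28 (0.892) and replicate 4 for Polk (0.867).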

How the results depend on the processing

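The main count was 5 ribosomal protein genes higher and 0 lower. It was 2 with arrays centred on their medians (4.44%, against 6.20% of all genes), 2 over members above 12 log2 units alone and 2 without replicate 2 of both groups (4.44% against 7.15%; both chosen after seeing the data). It was 8 with the unequal-variance test (17.8% against 3.69%) and 0 at a threshold of 0.01 (3.30% of all genes). With trended robust variance it was 11 higher (24.4% against 8.92%) and 1 lower. Without probe sets marked _x, _s or _a, which leaves 24 members, it was 5 (20.8% against 7.16%), 2 of them the same genes. Leaving out each array in turn gave 1 to 5 higher and 0 lower, with a share above that of all genes only without knockout-labelled replicate 2. The median difference stayed positive in every setting run. The replicate block kept all 5 calls, with 5 members higher; beside the 2 calls lost above (Eif1a and Myc) it changed no other call of a named gene. The other ribosome and translation lists together, 268 genes, had 18 higher and 11 lower. Of all genes 7.84% were higher and 11.7% lower. With 1 array left out the higher count of these lists was 7 to 38, against 4.97% to 10.1% of all genes. Their lower count was 8 to 13, against 8.98% to 11.5%. The higher count was 31 after a second quantile normalisation (9.62% of all genes) and 36 with array weights (10.6%). Above the median level, 29 of 247 genes were higher and 17 lower, against 16% and 20% of all such genes. Trended variance gave 29 higher (8.92% of all genes). Every probe set gave 29 higher and 27 lower, against 6.08% and 9.39% of all single-gene probe sets. A threshold of 0.01 gave 4 and 6 (3.30% and 7.41% of all genes), and the unequal-variance test gave 10 higher (3.69%). Without replicate 2 of both groups 7 were lower (9.39% of all genes). Without probe sets marked _x, _s or _a, 4 of 228 were lower (11.2%). Medians near 0 changed sign for p53 targets (-0.0157 to 0.0408 over the 8 omissions, negative without knockout-labelled replicate 3), mitochondrial ribosomal genes (-0.0564 to 0.0058) and polymerase I genes (-0.0112 to 0.0477), for TOR and Myc genes with the mean of probe sets (-0.0095), and without marked probe sets for polymerase I (-0.0554) and elongation genes (-0.00608). Further sign changes of the polymerase I and p53 medians stand beside their lists. The cause of these changes was not tested. With 4 arrays per group, standard errors of bright members were 0.05 to 0.07, and dim probe sets gave wider ones, up to 0.21.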
